A study of Mus musculus with 4 samples.

Results

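The brush border disaccharidases are the enzymes on the luminal face of the small intestine that split sugars of 2 units, and the short chains left from starch, into single hexoses. Sucrase-isomaltase (Sis) acts on sucrose and on the branch points of starch, maltase-glucoamylase (Mgam) on maltose and short glucose chains, lactase-phlorizin hydrolase (Lct) on lactose, and trehalase (Treh) on trehalose, the disaccharide of fungi and insects. They are made by enterocytes, the absorptive cells of the villus, and the hexoses they release are taken up through the same membrane by Slc5a1 (SGLT1) and Slc2a5 (GLUT5). All 4 genes were chosen by symbol, and 3 of them, Sis, Lct and Treh, had exon blocks in the reference against which the reads were placed, out of 20816 genes with such blocks.

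RNA was taken from frozen small intestine and colon of untreated C57BL/6 mice aged 9 to 10 weeks. The study's methods specify jejunum and distal colon. Each tissue was sequenced once from polyadenylated RNA, reverse transcribed from oligo-dT with a template switch and then fragmented (cDNA fragmented), and once after depletion of ribosomal RNA as given by the labels, with fragmentation of the RNA before directional ligation (RNA fragmented). The 4 libraries thus stand for 4 groups of 1, and no test between groups was made. The study describes both tissues as taken from the same animals, but which mice gave which library is not given in the sources used here. Intervals at the 95% level cover counting error only and, with 1 library per group, not the spread between mice or libraries. They treat reads as independent. Amplified reads carry no molecular identifier, so the intervals may be too narrow even for counting error.

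Uniquely placed reads numbered 22484041 for small intestine and 24798934 for colon in the cDNA fragmented libraries. As deposited, the RNA fragmented libraries were shallower, with 2035386 reads from small intestine and 3478387 from colon. Levels are given as reads per kilobase of exon blocks and per 1000000 uniquely placed reads (RPKM). In whole tissue, fewer enterocytes and less RNA per enterocyte cannot be told apart. By the 3-fold rule given below, all 7 enterocyte markers were higher in small intestine and all 5 colonocyte markers higher in colon by both protocols. Of all genes tested, 2.9% by cDNA and 4.04% by RNA fragmentation passed for small intestine, and 3.4% and 7.13% for colon. Smooth muscle markers moved with tissue too, as 5 of 6 were higher in colon by each protocol, with sums of 304 RPKM in small intestine and 1269 RPKM in colon by cDNA and 238 and 2412 RPKM by RNA fragmentation. The libraries of 1 tissue differed in other respects. Summed over 15 pancreatic acinar genes, the level was 345 RPKM in small intestine and 1264 RPKM in colon by cDNA fragmentation, but 3880 RPKM and 312 RPKM by RNA fragmentation. In the cDNA fragmented small intestine 9 of the 15 were without a read, and 325 of the 345 RPKM came from Clps, the pancreatic colipase gene. In colon, Cela1 made up 544 of the 1264 RPKM by cDNA and 291 of the 312 RPKM by RNA fragmentation. In the RNA fragmented colon 5 of the 15 were without a read. The Y-linked gene Uty, looked up after its values had been seen, had 0 reads in the cDNA fragmented small intestine and 451 in the cDNA fragmented colon, and 128 and 341 reads in the RNA fragmented small intestine and colon. The cDNA fragmented pair thus differed in a Y-linked gene although the tissues are described as coming from the same animals. The part of these differences in the results on disaccharidases was not tested.

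The reference places Sis on the minus strand of chromosome 3 between 72692482 and 72770788 (mm9), with 47 exon blocks of 5887 bases. GENCODE (M1) also lists a coding transcript, Sis-001, with 48 exons that begins further upstream, at 72771785, outside these blocks. Lct, on the minus strand of chromosome 1 between 130181341 and 130224895, had 17 blocks with 6166 bases. Treh, on the plus strand of chromosome 9 between 44481321 and 44494387, had 15 blocks with 2042 bases. A read of 35 colors can start inside a block only where it also ends there, and this held for 72.9% of the bases of Sis, 90.6% of Lct and 75% of Treh, beside a median of 88.41% over all genes. Sis and Treh, with their short exons, thus offer fewer read starts per base than Lct. Within 3 color mismatches all 4289 windows of Sis and all 5588 windows of Lct that lay inside blocks had a single placement on the exon reference. For Treh this was true of 1504 of 1532 windows. The other 28 matched a second site in the last block, which holds a near repeat in tandem.

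Mgam could not be measured. Its locus on the plus strand of chromosome 6 between 40578830 and 40719122 holds 0 exon blocks of the reference table. Its transcript of 6488 bases gives 6454 windows of 35 bases, and 2 of these matched other exon blocks within 3 color mismatches, each at more than 1 place. Reads from Mgam were thus not counted on Sis, its closest relative in the family, and the level of maltase-glucoamylase is not analysed here.

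Sequence near the transcription start was compared because the measured genes shared their tissue pattern. The promoters of all 4 genes were read from RefSeq (GRCm38.p6) over 300 bases around the start. They were searched on both strands for letters bound by factors known to act on these genes, namely TGATAA for GATA factors, AGATAA likewise for GATA factors, TTTATNG for CDX factors, the HNF1 core GTTAAT and the full HNF1 motif that contains it, and CAAAGTCCA for HNF4. The windows below are the 30 bases of each promoter with most matched letters, written 5' to 3' on the strand of the gene, with matches in capitals.
Sis, chr3:72967886-72967915, minus strand: CAATAAAactttatgagtagtcaatatata
Lct, chr1:128328390-128328419, minus strand: TTATCTgtcctAGATAAcccagttaaatat
Treh, chr9:44673162-44673191, plus strand: TGGACTTTGgctgacctgggtaggcaagtg
Mgam, chr6:40628765-40628794, plus strand: TTATCTgtgcccaggggtggggaatgacaa
The window of Sis begins 52 bases before the start with a CDX match on the other strand, and a GTTAAT match lies 165 bases before the start. Lct holds AGATAA in both orientations, 101 and 90 bases before the start. Mgam holds it 208 and 66 bases before the start, and Treh has the HNF4 letters 71 bases before the start. No motif was found in all 4 promoters. Of 32851 promoters of the same length, 11.2% hold AGATAA, 9.05% TGATAA, 10.9% TTTATNG, 7.1% GTTAAT and 0.475% CAAAGTCCA. The full HNF1 motif was found in 0.0396% of promoters and in none of these 4. A match is a run of letters and not a measured site.

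In small intestine the disaccharidases ranged from moderately to very highly expressed, and Sis was the highest by each protocol. Sis had 67240 reads by cDNA and 12905 by RNA fragmentation, which corresponds to 508 RPKM (504 to 512) and 1077 RPKM (1059 to 1096). This placed it at rank 189 and rank 40 of 20816 genes. Lct had 13861 and 6195 reads, or 100 RPKM (98.3 to 102) and 494 RPKM (481 to 506). Its rank was 902 by cDNA and 94 by RNA fragmentation. Treh had 3591 and 760 reads, or 78.2 RPKM (75.7 to 80.8) and 183 RPKM (170 to 196), at rank 1128 and rank 296. Together the 3 genes took 0.377% of all uniquely placed reads of the cDNA fragmented and 0.976% of those of the RNA fragmented small intestine.

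**Figure D1:**
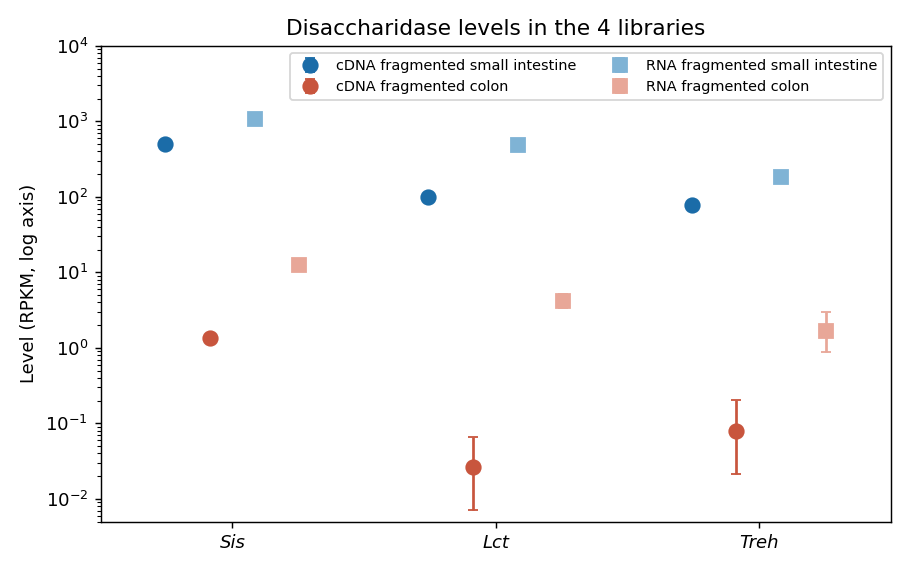
Levels of the 3 measured disaccharidases (RPKM, log axis) in each of the 4 libraries, with circles for cDNA and squares for RNA fragmentation, and bars for the exact Poisson interval at 95%, which is hidden by the marker where narrow. For each gene both small intestine libraries, at 78.2 RPKM or more, lie above both colon libraries, at 12.6 RPKM or less.

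In colon all 3 genes were far lower, and each was lower by cDNA than by RNA fragmentation. Sis had 195 reads by cDNA and 257 by RNA fragmentation, or 1.34 RPKM (1.15 to 1.54) and 12.6 RPKM (11.1 to 14.2). Lct had 4 reads in the cDNA fragmented colon, or 0.0262 RPKM (0.00713 to 0.067), and 89 reads, or 4.15 RPKM (3.33 to 5.11), in the RNA fragmented colon. Treh had 4 and 12 reads, or 0.079 RPKM (0.0215 to 0.202) and 1.69 RPKM (0.873 to 2.95). Sis was thus the only disaccharidase with more than 4 reads in the deepest library. Its 195 reads fell on 180 start points (a position and strand with at least 1 read) in 41 of 47 blocks and were not a pile at 1 site. For Lct and Treh the level in the cDNA fragmented colon rests on so few reads that their order there was not resolved, with a ratio of 3.02 for Treh over Lct and an interval from 0.562 to 16.2.

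The order Sis, Lct, Treh was found in both small intestine libraries and in the RNA fragmented colon, but the distances differed. By cDNA fragmentation Sis stood 5.08 times above Lct (4.99 to 5.18), and Lct 1.28 times above Treh (1.23 to 1.33). By RNA fragmentation Sis stood 2.18 times above Lct (2.12 to 2.25), and Lct 2.7 times above Treh (2.5 to 2.91). The difference between Lct and Treh by cDNA fragmentation nearly closed when the level was set on the possible read starts in place of all exonic bases, at 1.06 times (1.02 to 1.1). Of the summed RPKM of the 3 genes in small intestine, Sis made up 74% by cDNA and 61.4% by RNA fragmentation. Lct made up 14.6% and 28.2%, and Treh 11.4% and 10.4%. Counted as start points, the shares lay closer together, with 42.6% and 45.6% for Sis, 30.1% and 35.9% for Lct and 27.3% and 18.5% for Treh. In the cDNA fragmented small intestine the start points came to 95.5% of the possible starts of Sis on both strands, beside 54.4% for Lct and 59.5% for Treh. Reads up to 3 bases outside a block were counted as well, so these shares may be somewhat too high. The start points of Sis still had little room to rise there.

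To ask how strongly the disaccharidases separate the tissues, small intestine was set against colon within each protocol. A gene was called by the study's own rule, which divides its RPKM by that in the other library plus a penalty of 1 RPKM and requires a quotient of at least 3. All 3 measured disaccharidases passed in favour of small intestine by both protocols. Among all genes with at least 5 reads in 1 of the libraries, 2.9% passed in this direction by cDNA fragmentation (449 of 15481) and 4.04% by RNA fragmentation (560 of 13872).

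Reads of Lct, scaled to the uniquely placed reads of each library, were 3822 times higher in small intestine by cDNA fragmentation (1492 to 14029), and 119 times higher by RNA fragmentation (96.5 to 148). Treh was 990 times higher (386 to 3636) and 108 times higher (61.6 to 210). Sis was 380 times higher (330 to 440) and 85.8 times higher (75.8 to 97.5). Counted as start points, the ratios were lower by both protocols, at 1591 and 33.9 for Lct, 477 and 36.9 for Treh and 47.7 and 20.1 for Sis. For Sis this count was near its limit in the cDNA fragmented small intestine, where start points came to 95.5% of possible starts. By cDNA fragmentation the interval of Sis, in reads, does not overlap that of Lct, whereas by RNA fragmentation the intervals of Sis, Lct and Treh overlap in part. On the log2 scale, with 0.1 RPKM added, the ratios placed Lct, Treh and Sis at rank 25, 36 and 42 of 15481 genes by cDNA and at rank 43, 52 and 63 of 13872 genes by RNA fragmentation. Over the 3 genes the log2 ratio had a median of 8.77 and 6.68, beside medians of -0.38 and -0.43 over all genes tested. In reads scaled to the library, every exon block of Sis and of Lct was higher in small intestine by both protocols. The same held for all 15 blocks of Treh by cDNA and for 14 by RNA fragmentation, where the first block had no read in either tissue. In the cDNA fragmented colon only 4 blocks of Lct and 3 of Treh held a read, so any other block with a read in small intestine had to be higher.

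**Figure D2:**
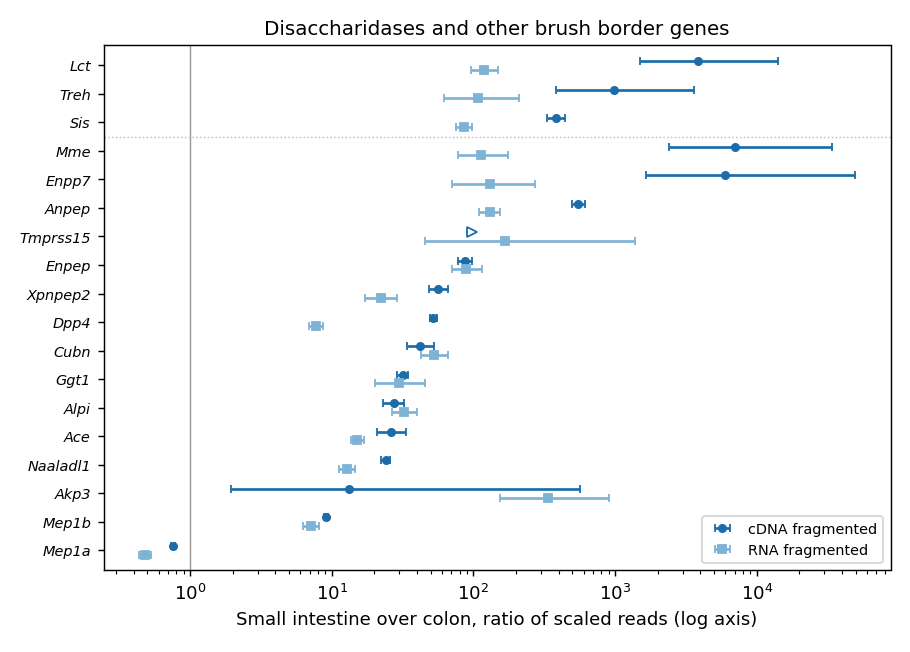
Ratio of scaled reads in small intestine over colon (log axis) for the 3 disaccharidases, above the dotted line, and 15 of the 16 other brush border genes tested, all hydrolases but the receptor Cubn, with circles for cDNA and squares for RNA fragmentation and bars for the counting interval at 95%. An open triangle marks a gene without reads in colon, where the ratio was set against 3 reads and is a lower bound. All genes shown but Mep1a lie to the right of 1, and the RNA fragmented ratios of the disaccharidases lie between 85.8 and 119.

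The protocols differed more in colon than in small intestine. In the RNA fragmented pair the colon level was 1.17% of the small intestine level for Sis (1.03 to 1.32), 0.841% for Lct (0.674 to 1.04) and 0.924% for Treh (0.475 to 1.62). For the cDNA fragmented pair the values were 0.263%, 0.0262% and 0.101%. There were 36 genes with at least 300 reads in the RNA fragmented small intestine and a ratio of at least 100 by cDNA fragmentation, the 3 disaccharidases included. Their RNA fragmented colon level had a median of 0.937% of that in small intestine, with quartiles of 0.769% and 1.49% and a range from 0.0935% to 3.45%. In the opposite direction, 21 genes of colon left a median of 0.809% in the RNA fragmented small intestine, with quartiles of 0.467% and 1.65% and a range from 0.283% to 64.1%. This description was added after the values had been seen, and its cause was not tested.

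The positions of the few colon reads were compared with those of small intestine. In the RNA fragmented colon Sis had 143 start points, and 130 of them (90.9%) also held a read in the RNA fragmented small intestine. Start points of Sis in that library came to 39.2% of the possible positions on the strand of the gene. For Lct 54 of 70 start points (77.1%) were shared, at 24.8% of possible positions, and for Treh 6 of 11. The pair of start points that held most Sis reads in small intestine was also the leading pair in colon. For Lct the leading start point in colon, with 5 reads, held 0 in small intestine. The second in colon, with 4 reads, was the leading one of small intestine. For Treh the leading pair of small intestine, with 72 and 27 reads, held 0 reads in colon. Start points in RNA fragmented libraries are uneven, so that such sharing was not tested against a background.

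Some positions held many RNA fragmented reads. The sites below are those with most Sis reads and the leading sites of Lct and Treh whose surroundings lie inside 1 exon block. They are shown because they carry a visible part of the RNA fragmented level. Each line gives 30 bases of the strand of the gene (mm9), and capitals mark the 15 bases with which the reads begin.
Sis, block 21, chr3:72735996-72736025, minus strand: tagatgaaaaccaggCAGCAAAAGGAGAAC
Sis, block 24, chr3:72732156-72732185, minus strand: cgacgcaaagtttctCAGACAATGAGAAAT
Lct, block 7, chr1:130200882-130200911, minus strand: caaaagcagcagggaCGCGTGGGCATTGTG
Treh, block 10, chr9:44491983-44492012, plus strand: atctgaacgcgttccTGTGCCAAGCAGAGG
All 4 lie in coding exons. At the first Sis site began 594 of the 12905 reads from small intestine (4.6%) and 13 of the 257 from colon (5.06%), and at the second 589 and 9. In the deeper cDNA fragmented small intestine the same positions and strand held 1 and 5 reads. The Lct site held 216 reads and the Treh site 72, beside 0 and 2 reads in the cDNA fragmented small intestine. The leading Lct site, with 227 reads, begins too close to the edge of block 8 to be shown. Without the leading pair of start points in each library the RNA fragmented tissue ratio was 85.2 for Sis, 123 for Lct and 126 for Treh.

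The reads of the RNA fragmented libraries carry the strand of the RNA. In small intestine all 12905 reads of Sis, all 6195 of Lct and all 760 of Treh were in sense, while 98.517% of the reads on all genes were. In colon 1 of 12 Treh reads was in antisense. By cDNA fragmentation, which does not keep the strand, 50.7% of Sis, 51.9% of Lct and 49.3% of Treh reads in small intestine were in sense.

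The 2 small intestine libraries were then compared with each other. All 3 disaccharidases were lower by cDNA than by RNA fragmentation. Lct was lowest, at a ratio of 0.203 (0.197 to 0.209), followed by Treh at 0.428 (0.395 to 0.463) and Sis at 0.472 (0.463 to 0.481). By the 3-fold rule, 1 of the 3, Lct, was higher by RNA fragmentation, beside 12.4% of all genes tested (1827 of 14713). The median log2 ratio of the 3 genes was -1.22, and that of all genes -0.36. Median-of-ratios size factors shifted all log2 ratios of this comparison by 0.60, which brought Sis to 0.717, Treh to 0.65 and Lct to 0.308. Over the last 1000 exonic bases alone the ratio was 0.862 for Sis, 0.513 for Treh and 0.389 for Lct, and by start points it was 0.52, 0.82 and 0.467. No member passed the rule in either case.

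**Figure D3:**
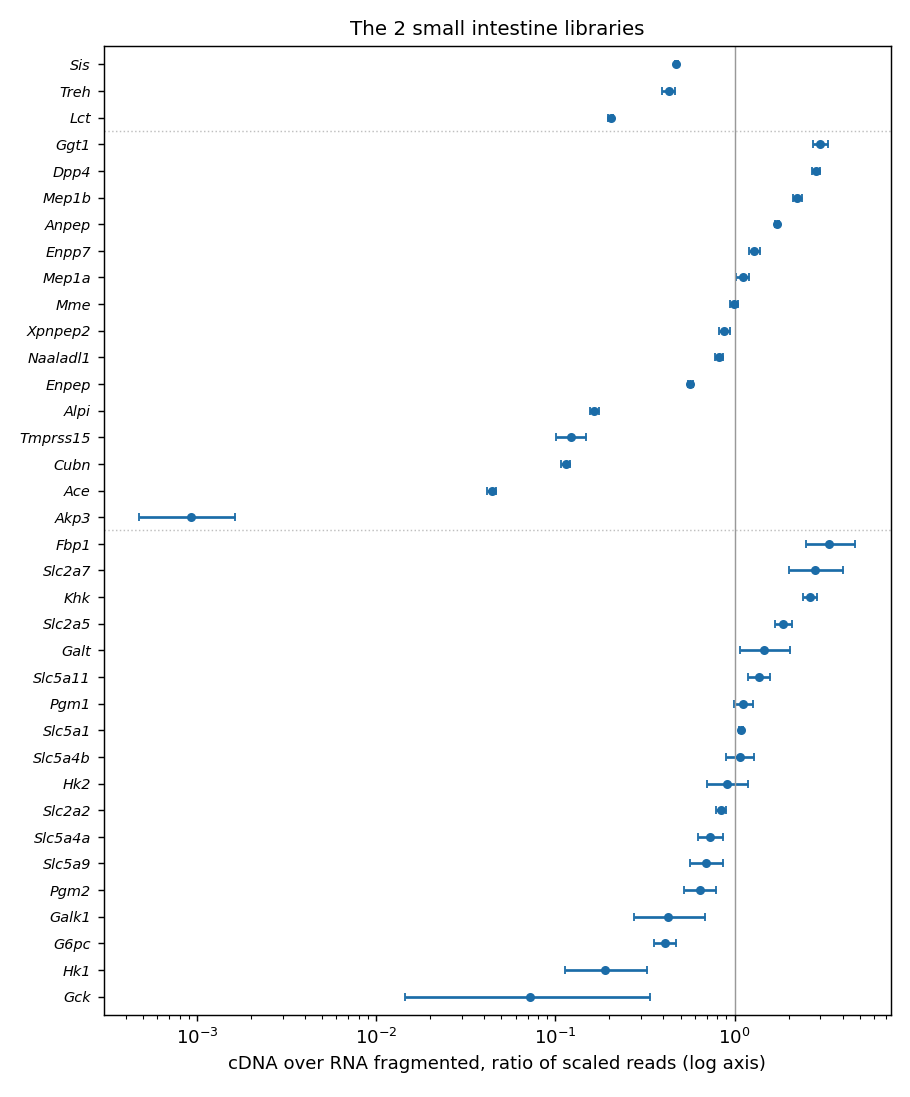
Ratio of scaled reads in the cDNA over the RNA fragmented small intestine (log axis) for the disaccharidases (top), other brush border hydrolases (middle) and genes of hexose uptake and metabolism (bottom), with bars for the counting interval at 95%. The disaccharidases lie between 0.203 and 0.472, while hydrolases range from 0.000926 (Akp3) to 3.01 (Ggt1).

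Genes on the same membrane were spread widely in this comparison. Among the other brush border hydrolases, 5 of 16 were higher by RNA fragmentation by the 3-fold rule, beside 12.4% of all genes. By cDNA fragmentation 0 were higher, beside 8.8% of all genes. These 5, named after their values had been seen, were Akp3, Alpi, Ace, Cubn and Tmprss15. Cubn is an endocytic receptor of this membrane and not a hydrolase. Akp3 and Alpi encode intestinal alkaline phosphatases, and Tmprss15 is enteropeptidase, the activator of trypsinogen. Akp3 had 12 reads by cDNA and 1173 by RNA fragmentation, or 0.318 and 343 RPKM. Alpi had 67.7 and 410 RPKM, and Tmprss15 3.16 and 25.8 RPKM. Markers of the upper small intestine did not move together, with Fabp1 at 13431 and 600 RPKM, Gata4 at 8.72 and 35.5 RPKM and Cybrd1 at 0.487 and 3.49 RPKM. Of the ileal markers, Fabp6 stood at 1185 and 311 RPKM and Slc10a2 at 13.3 and 49.2 RPKM. Protocol, depth, mouse and stretch of intestine cannot be told apart in this comparison.

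Along the Sis transcript the protocols gave different profiles. By cDNA fragmentation the read density rose from the third block, at 7.39 reads per possible start in blocks 3 to 8 (7.17 to 7.62), to 22.8 in the last block (22.4 to 23.2). Blocks 1 and 2, at the 5' end of the blocks, broke this slope with 38.7 reads per possible start (37.7 to 39.7). They held 6078 reads, 9.04% of all Sis reads on 3.66% of the possible starts. The blocks were grouped in this way after the profile had been seen.

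Blocks 1 and 2 thus had 5.24 times the density of blocks 3 to 8 in the cDNA fragmented small intestine (5.03 to 5.45). In the cDNA fragmented colon the ratio was 7.54 on 19 and 9 reads (3.25 to 18.9). By RNA fragmentation it was 0.839 in small intestine (0.752 to 0.935) and 1.89 in colon on 19 and 36 reads (1.02 to 3.38). The rise at the 5' end was therefore seen in both cDNA fragmented libraries and not in the RNA fragmented small intestine. GENCODE (M1, same assembly) lists, beside the coding transcripts, a transcript with retained intron (Sis-002, 772 bases in 3 exons, from 72769014 to 72771782) whose exons overlap blocks 1 and 2 and no other block. Reads inside blocks 1 and 2 do not tell Sis-002 from the coding transcripts. Without blocks 1 and 2 the tissue ratio of Sis was 383 by cDNA and 89.7 by RNA fragmentation.

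**Figure D4:**
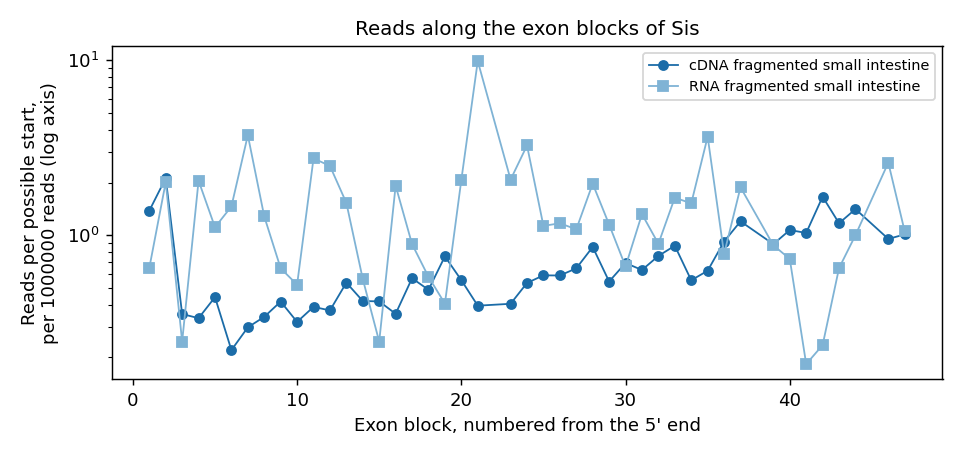
Reads per possible start, scaled to 1000000 placed reads (log axis), for the 44 exon blocks of Sis with at least 20 possible starts, numbered from the 5' end, in the cDNA (circles) and RNA fragmented (squares) small intestine. The cDNA fragmented profile is high in blocks 1 and 2 and climbs from block 3 to the 3' end, and the RNA fragmented profile peaks at block 21.

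By RNA fragmentation the density of Sis was more uneven but had no slope towards the 3' end. It ranged from 0.373 reads per possible start in block 41 to 20.2 in block 21, around a median of 2.32 over 44 blocks. Block 21 alone held 1109 reads (8.59%), most of them at the site shown above. The 5' part of the transcript, up to the middle of its exonic bases, held 36% of Sis reads by cDNA and 57.9% by RNA fragmentation. By RNA fragmentation this part includes the leading Sis sites, with 594 and 589 reads, and its share without them was not calculated. For genes of like length, within 25%, with at least 100 reads the median was 26.6% and 47.6%. Their quartiles were 13.9% and 41.8% by cDNA and 40.1% and 56.9% by RNA fragmentation. As a consequence the ratio of the small intestine libraries for Sis depended on the exons counted, at 0.216 in blocks 3 to 8 (0.204 to 0.228), 0.962 in block 47 (0.902 to 1.03) and 1.35 in blocks 1 and 2 (1.22 to 1.49).

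Lct showed a loss of read density towards the 5' end by cDNA fragmentation. Blocks 1 to 8 had 1.31 reads per possible start (1.27 to 1.35), blocks 9 to 16 had 3.94 (3.84 to 4.05) and the last block had 6.68 (6.46 to 6.9). By RNA fragmentation blocks 1 to 8 had 1.18 (1.14 to 1.22), blocks 9 to 16 only 0.635 (0.594 to 0.679) and the last block 1.85 (1.74 to 1.97). Blocks 9 to 16 thus lay between the other stretches by cDNA fragmentation and below both by RNA fragmentation. Blocks 1 to 8 hold 65.5% of the possible starts of Lct and had a ratio of cDNA to RNA fragmentation of 0.1 (0.0963 to 0.105). Blocks 9 to 16 had a ratio of 0.561 (0.523 to 0.603), and the last block 0.327 (0.305 to 0.351). The 5' part held 21.4% of Lct reads by cDNA and 60.8% by RNA fragmentation, where genes of like length had medians of 25.3% and 47.6%. Lct-002, an annotated transcript with retained intron, overlaps blocks 13 to 15.

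**Figure D5:**
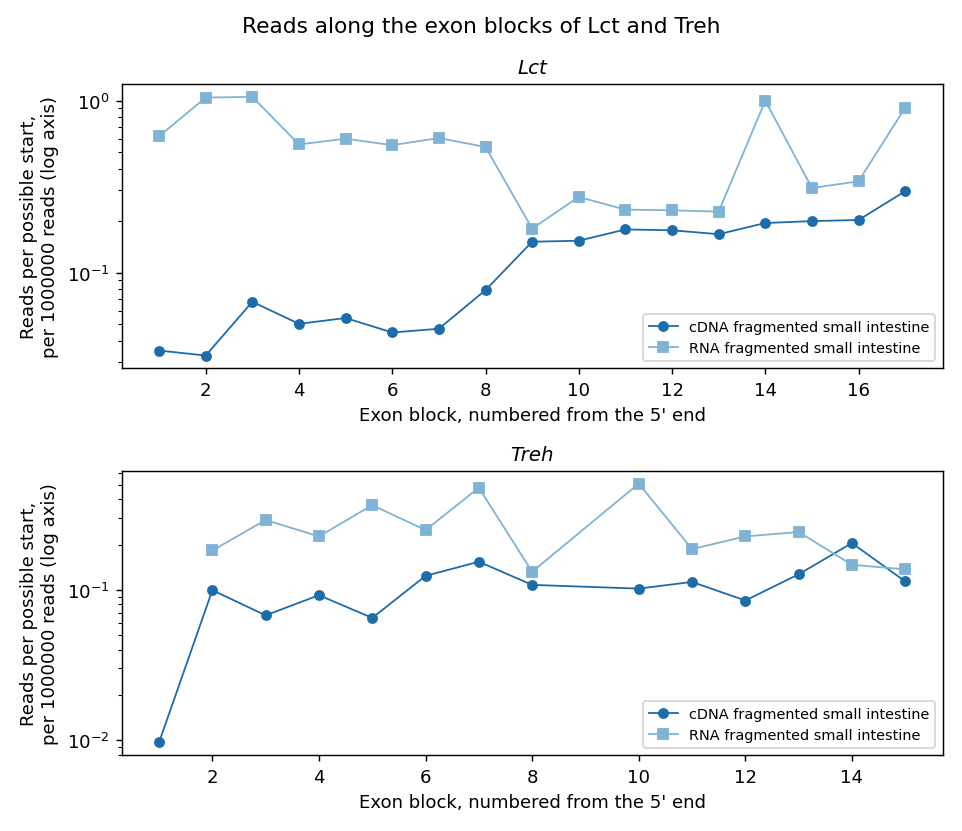
Reads per possible start, scaled to 1000000 placed reads (log axis), along the exon blocks of Lct (top) and Treh (bottom) with at least 20 possible starts, numbered from the 5' end, in the cDNA (circles) and RNA fragmented (squares) small intestine. The protocols lie far apart in blocks 1 to 8 of Lct and closer from block 9 on, and block 1 of Treh has no RNA fragmented read and so no square.

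In Treh, the shortest of the 3, the last block was not far from the others by cDNA fragmentation and lower by RNA fragmentation. By cDNA fragmentation blocks 2 to 14 had 2.4 reads per possible start (2.31 to 2.49) and the last block 2.56 (2.41 to 2.73). By RNA fragmentation these were 0.609 (0.563 to 0.657) and 0.278 (0.229 to 0.336). Block 1, where the coding sequence begins, had 15 reads on 69 possible starts by cDNA and 0 by RNA fragmentation, which allows up to 3 reads. The 5' part held 41% of Treh reads by cDNA and 45.5% by RNA fragmentation, with medians of 38.5% and 44.2% for genes of like length.

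Few reads were placed across exon borders, and in the cDNA fragmented small intestine 0.686% of all junction reads had at most 1 mismatch, beside 59.835% of all uniquely placed reads. The junction reference appears to hold 1 base too many at the join, which was not tested, and these counts may be too low. Sis had 1301 junction reads in the cDNA and 224 in the RNA fragmented small intestine, Treh 87 and 29, and Lct 55 and 15. When these were added, the cDNA fragmented tissue ratio was 367 for Sis and 676 for Treh, whose colon then had 6 reads, and 3837 for Lct.

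The hexose transporters and enzymes that act after the disaccharidases shared the tissue difference in part. Of 22 listed genes of hexose uptake and metabolism 20 could be tested. By the 3-fold rule 11 were higher in small intestine by each protocol, the same 11 in both, beside 2.9% and 4.04% of all genes. Listed genes higher in colon numbered 2 by cDNA and 1 by RNA fragmentation, where 3.4% and 7.13% of all genes were called in that direction. Over the list the log2 ratio had a median of 3.75 by each protocol. Slc5a1, the apical cotransporter of sodium and glucose, had 1218 RPKM in small intestine and 47.7 RPKM in colon by cDNA fragmentation, and 1119 and 75.2 RPKM by RNA fragmentation. Its tissue ratio was 25.5 (24.8 to 26.3) and 14.9 (14 to 15.9), well below that of any disaccharidase. Slc2a2 (GLUT2), the basolateral hexose transporter, was closer to them, at 3461 (1184 to 16784) and 102 (63.7 to 177). Its RPKM were 163 in small intestine and 0.0471 in colon by cDNA and 195 and 1.9 by RNA fragmentation.

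Khk, the first enzyme of fructose breakdown, stood nearer to Slc5a1. It was 14.2 times higher in small intestine by cDNA (13.3 to 15.1) and 19.6 times by RNA fragmentation (14.1 to 27.9). Hk1, a hexokinase of most tissues, went the other way by both protocols, with 0.473 RPKM in small intestine and 4.79 RPKM in colon by cDNA and 2.51 and 18 RPKM by RNA fragmentation.

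Of 3 listed amylase genes, which act on starch before the brush border, 1 could be compared. Amy2b had no exon blocks and was not measured, and Amy2a5, which has near-identical copies, had 0 uniquely placed reads in all 4 libraries, so that its level is uncertain. Amy1 had 0.366 RPKM in small intestine and 1.31 RPKM in colon by cDNA and 21.8 and 0.316 RPKM by RNA fragmentation. Amy1 thus changed direction between the protocols, as did acinar genes such as Ctrb1 (chymotrypsinogen), with 0.15 and 80.6 RPKM by cDNA and 883 and 1.62 RPKM by RNA fragmentation. None of the measured disaccharidases changed direction.

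Relatives of the disaccharidases outside the brush border, among them glycosidases of lysosomes and the endoplasmic reticulum and the klotho proteins, were also compared. Of 12 listed 10 could be tested, and 0 were higher in small intestine by the rule by either protocol. Of all genes, 2.9% by cDNA and 4.04% by RNA fragmentation passed in that direction, so with 10 genes a count of 0 is near these shares. In colon 0 were higher by cDNA and 1 by RNA fragmentation, beside the 3.4% and 7.13% of all genes. The gene was Klb (50 reads in colon, 1 in small intestine), a klotho protein that serves as a co-receptor and is named after its values had been seen. The median log2 ratio was -0.96 and -0.87. Ganab, glucosidase II of the endoplasmic reticulum and like Sis a member of glycoside hydrolase family 31, had 56.4 and 45.4 RPKM by cDNA and 41.8 and 25.6 RPKM by RNA fragmentation. Glb1, the lysosomal beta-galactosidase, also cleaves lactose and was lower in small intestine, with 11.1 and 28.9 RPKM by cDNA and 7.52 and 18.9 RPKM by RNA fragmentation.

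Among the 17 other brush border genes, most of them for peptidases, 16 could be tested. By the 3-fold rule 14 were higher in small intestine by cDNA and 15 by RNA fragmentation, 14 of them by both, and 0 in colon. Of all genes, 2.9% and 4.04% passed for small intestine and 3.4% and 7.13% for colon, so 0 of 16 in colon is near those shares. The median log2 ratio was 5.02 and 5.34. Anpep (aminopeptidase N) exceeded all disaccharidases in level by both protocols, with 2513 RPKM in the cDNA and 1459 RPKM in the RNA fragmented small intestine. Its tissue ratio was 552 (500 to 612) and 130 (109 to 155). Dpp4 and Mep1b had lower ratios than the disaccharidases. Dpp4 was 52.1 times higher by cDNA (49.1 to 55.4) and 7.69 times by RNA fragmentation (6.86 to 8.64), and Mep1b 9.12 times (8.81 to 9.46) and 7.14 times (6.25 to 8.18). Mep1a, its partner subunit in meprin, was the exception, with ratios of 0.758 (0.735 to 0.781) and 0.482 (0.439 to 0.528), and is named after its values had been seen. Akp3, with 12 reads in small intestine and 1 in colon, missed the rule by cDNA fragmentation.

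Factors known to act on disaccharidase promoters went both ways. Of 15 listed, 14 could be tested by cDNA and 15 by RNA fragmentation. By cDNA fragmentation 3 passed the rule for small intestine and 3 for colon, and by RNA fragmentation 4 and 2. Of all genes, 2.9% and 3.4% passed in these directions by cDNA and 4.04% and 7.13% by RNA fragmentation. Over the listed factors the log2 ratio had a median of -0.60 and -0.12. Hnf4g, a nuclear receptor of enterocytes, had 290 and 8.66 RPKM by cDNA and 160 and 23.2 RPKM by RNA fragmentation. Gata4 and Gata5, zinc finger factors named after their values had been seen, were the others higher in small intestine by both. Gata4, which is known to be needed for Lct in jejunum, had 8.72 and 0.0594 RPKM by cDNA and 35.5 and 0.424 RPKM by RNA fragmentation.

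Cdx1, a homeobox factor of the intestinal epithelium, was higher in colon by both protocols and had 13.2 and 54.6 RPKM by cDNA and 56.5 and 279 RPKM by RNA fragmentation. Cdx2, known to activate Sis and named with its values seen, passed for colon by cDNA fragmentation, with 13 and 47.9 RPKM, and had 79 and 39.3 RPKM by RNA fragmentation. Pdx1, likewise named with its values seen, passed for small intestine by RNA fragmentation, with 15 reads in the RNA fragmented small intestine and 0 in colon. Hnf4a, Klf4 and Isx did not pass the rule. Hnf4a stood at 89 and 111 RPKM by cDNA fragmentation, Klf4 at 69.5 and 160 RPKM and Isx at 103 and 125 RPKM.

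To find the genes with a pattern most like that of each disaccharidase, log2(RPKM + 0.1) was centred over the 4 libraries and the root mean square distance was taken to 7649 genes with enough reads in small intestine. Sis and Treh were each other's nearest gene, at a distance of 0.16. The next for both were Slc6a19, the brush border transporter of neutral amino acids, at 0.28 from Sis and 0.39 from Treh, and G6pc, glucose-6-phosphatase, at 0.29 and 0.44. Slc6a19 had 151 and 0.413 RPKM by cDNA and 264 and 2.59 RPKM by RNA fragmentation. Lct stood apart from them, and Sis came at place 5 in its list at a distance of 0.90. Its nearest genes were Slc5a12, a monocarboxylate cotransporter, at 0.60, Treh at 0.77 and Slc2a2 at 0.86. Slc5a12 had 70 RPKM in the cDNA and 136 RPKM in the RNA fragmented small intestine. The distances between disaccharidases depend on the 0.1 RPKM added, as Treh and Lct each had 4 reads in the cDNA fragmented colon. By cDNA fragmentation the log2 tissue ratios of Sis and Treh were 8.57 and 9.95 without it, but 8.47 and 8.77 with it. A distance over 4 libraries is a description.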

How the data were processed

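The deposited files hold color space reads of 35 colors that the authors had matched, with at most 3 mismatches, to exon blocks of RefSeq genes (mm9) and to an exon junction reference; the authors kept reads with a single placement. Each line gives a placement (reference number, signed position, mismatches), which was translated to mm9 with the authors' exon table. The position rule was checked against the mm9 bases. A read was assigned to the block that holds its middle with a tolerance of 3 bases, and blocks were assigned to GENCODE M1 genes by exonic overlap. Reads per gene were counted with Python 3 scripts (numpy, pandas, scipy; versions are kept with the scripts) and expressed as RPKM. Levels carry exact Poisson intervals, ratios exact Clopper-Pearson intervals of the reads of the pair, and shares Wilson intervals. A ratio against 0 reads used 3 reads per library. The 3-fold rule was tested on simulated data.

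With 1 library per tissue and protocol no p-value was calculated. The disaccharidases, gene lists and rules were chosen with earlier results of these data known. From each list the 4 genes with most reads were named, besides list genes at 3-fold in both protocols against the direction of the disaccharidases; others are marked where they appear. Like genes needed at least 100 reads in the cDNA and 20 in the RNA fragmented small intestine. Alternatives were at most 1 mismatch, start points in place of reads, the sense strand only, size factors by median of ratios, scaling to 6 pan-epithelial genes, the last 1000 exonic bases, added junction reads, a penalty of 0.1 RPKM and no minimum of 5 reads. Added after seeing the data were Sis without blocks 1 and 2, the omission of the leading pair of start points, and possible read starts as length. The labels give ribosomal RNA depletion for the RNA fragmented libraries, where the study's methods describe enrichment of polyadenylated RNA, and these libraries are named by their fragmentation. Read totals match the deposited run reports but are lower than the totals the study gives for the RNA fragmented libraries. Some genes of the lists enter the counts and medians but are not reported here by name or drawn. Protein sequences were not used here.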

Additional observations from a re-analysis of the deposited data

Results flagged for a closer look

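Junction reads lie outside the exon block counts and were above the 3 reads that a count of 0 allows. Sis had 1301 in the cDNA fragmented small intestine, 11 in the cDNA fragmented colon, 224 in the RNA fragmented small intestine and 8 in the RNA fragmented colon. Lct had 55 in the cDNA and 15 in the RNA fragmented small intestine, and Treh had 87 and 29. Genes named for their lists whose tissue ratio changed direction between the protocols, with counting intervals on opposite sides of 1, were also singled out; with 1 library a group the difference was not tested. Small intestine over colon was 0.28 by cDNA and 69.2 by RNA fragmentation for the amylase gene Amy1. Among acinar genes it was 0.0335 and 1.7 for Cela1 and 0.00187 and 545 for Ctrb1. Cela2a had 0 reads in the cDNA fragmented small intestine and 5503 in colon, a ratio of at most 0.000601 when 3 reads are allowed, and a ratio of 280 by RNA fragmentation. The goblet cell gene Fcgbp had 0.565 and 1.62, and the Paneth cell gene Ang4 had 2.92 and 0.816. Cdx2, named above but not among the genes named for their lists, changed direction too. Its ratio was 0.272 (0.249 to 0.297) by cDNA and 2.01 (1.72 to 2.36) by RNA fragmentation.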

How the results depend on the processing

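The labels carry no replicate numbers that pair libraries, and a fit of tissue with protocol as a block, which would leave 1 residual degree of freedom, was not made. All 3 disaccharidases stayed at 3-fold in favour of small intestine under each of the 8 alternatives and by both protocols, and no ratio of a single gene changed direction. With start points in place of reads the median log2 ratio of the RNA fragmented tissue comparison was 5.08. By reads it was 6.76, without the 0.1 RPKM added in the text. By start points Sis was 47.7 times higher in small intestine by cDNA and 20.1 times by RNA fragmentation. In the cDNA fragmented small intestine its start points already came to 95.5% of the possible starts on both strands. For cDNA over RNA fragmentation in small intestine the median log2 ratio, -1.23 by reads, was -0.94 by start points, -0.62 by median of ratios, -0.61 by epithelial scaling and -0.96 over the last 1000 bases. Lct, the 1 gene past 3-fold there, was lost by start points and over the last 1000 bases, which left 0. Start points moved all tissue ratios of the 3 genes by over 1.5 times. The other tissue ratios that moved this far rest on few colon reads: by cDNA fragmentation Lct was 2397 and Treh 2366 with at most 1 mismatch, on 4 reads and 1 read, Treh was 1943 on the sense strand, on 1 read, and by RNA fragmentation Treh was 311 over the last 1000 bases, on 2 reads. A penalty of 0.1 RPKM raised the genes called among all tested from 449 to 691, from 560 to 910 and from 1827 to 3462 in the order of the comparisons. A smaller penalty can only raise the quotient of the rule and so can only add calls. Median-of-ratios factors shifted log2 tissue ratios of all genes by 0.32 by cDNA and 0.34 by RNA fragmentation, and epithelial scaling by 0.50 and 0.36.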
